A study of Homo sapiens with 2 samples.

Results

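Telomerase and shelterin genes were followed in 2 libraries of polyadenylated RNA from TCam-2 cells transduced to overexpress DDX53. The 10 genes, taken from a list of symbols, are TERT, DKC1, NOP10, NHP2, GAR1, WRAP53, TERF1, TERF2, POT1 and ACD. All 10 were found among the 62700 genes of the gene table, and 88 of their transcripts were found in the transcript table. TCam-2 is a long-used cell line derived from a human testicular seminoma, a tumour of germ cells. The series holds 1 group, DDX53 overexpression, with 2 replicates, made by transduction of DDX53 carrying a FLAG tag. The promoter of the construct, the time after transduction and whether the replicates were separate cultures are not given in the sources used here, so the spread between them may be technical. The design names GFP-FLAG and untransduced cells as controls. Those libraries were not analysed here, so nothing below compares DDX53 with a control. In bulk RNA, fewer cells with a transcript and less of it per cell cannot be told apart.

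Telomerase is the enzyme that adds telomeric repeats to chromosome ends. Its catalytic protein is the reverse transcriptase TERT, which copies a template within the RNA TERC. The 3′ part of TERC belongs to the H/ACA class of small RNAs and is bound by dyskerin (DKC1), NOP10, NHP2 and GAR1. These proteins also act in pseudouridylation of ribosomal RNA. WRAP53 encodes TCAB1, which brings the enzyme to Cajal bodies and telomeres. Shelterin is the complex that covers telomeric DNA: TERF1 and TERF2 bind the double-stranded repeats, POT1 binds the single-stranded overhang, and ACD encodes TPP1, which joins POT1 to the complex and recruits telomerase. In most somatic cells TERT is silent, whereas germ cells and most tumours express it.

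The sequences that tell the annotated coding forms of TERT and ACD apart are shown first, since the shares of these forms are reported below. They were read from GENCODE release 29 transcripts on GRCh38, 5′ to 3′. TERT lies on the minus strand of chromosome 5, from 1253147 to 1295069, and TERT-201 is its full-length form of 16 exons and 1132 amino acids. TERT-203, annotated as a target of nonsense-mediated decay, lacks exon 7 (96 bases) and exon 8 (86 bases), 36 bases of exon 6 and exon 11 (189 bases). Loss of exons 7 and 8 is known as the beta deletion, and loss of the 36 bases of exon 6 as the alpha deletion. Neither form is known to have telomerase activity. TERT-202 lacks exon 11 alone. Each line holds 15 bases on either side of an exon junction, with the bases after the junction in capitals and exons numbered as in TERT-201.
TERT-201 from exon 5 into exon 6: ctgtactttgtcaagGTGGATGTGACGGGC
TERT-203 from exon 5 into exon 6 after the 36 lost bases: ctgtactttgtcaagGACAGGCTCACGGAG
TERT-201 from exon 6 into exon 7: gccttcaagagccacGTCTCTACCTTGACA
TERT-203 from exon 6 into exon 9: gccttcaagagccacGTCCTACGTCCAGTG
TERT-201 from exon 10 into exon 11: gaaaaccttcctcagGACCCTGGTCCGAGG
TERT-202 and TERT-203 from exon 10 into exon 12: gaaaaccttcctcagCTATGCCCGGACCTC

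ACD lies on the minus strand of chromosome 16, from 67657512 to 67660815. ACD-215 codes for 458 amino acids and ACD-201 for 455. Where both have exons they differ by 9 coding bases of exon 2 (chr16:67660037-67660045), which are in capitals.
ACD-215: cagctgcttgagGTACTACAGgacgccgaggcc
ACD-201: cagctgcttgaggacgccgaggcc

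The construct's gene and the identity of the cells were checked next. Reads assigned to genes numbered 24137664 for replicate 1 and 22198929 for replicate 2. DDX53 had 146 reads in replicate 1 and 147 in replicate 2, or 6.05 and 6.62 CPM. CPM is the reads of a gene scaled to a common total of reads in genes. DDX53 was number 10363 of the 62700 genes by mean CPM. Without a control, whether this level exceeds that of untransduced cells was not tested. All 8 listed seminoma markers reached 1 CPM in both libraries, with a summed level of 4677 and 4697 CPM. Most of that sum came from POU5F1 (1891 and 1921 CPM), TFAP2C (1255 and 1247 CPM) and NANOG (705 and 691 CPM). Of the other lists, 3 of 4 embryonal carcinoma markers (summed, 260 and 226 CPM), 2 of 8 markers of testis somatic cells (16.3 and 12.5 CPM), 1 of 4 of blood (2.73 and 2.61 CPM) and 3 of 4 of fibroblasts (474 and 448 CPM) did so. SOX2 of the embryonal carcinoma list missed the threshold narrowly, at 0.994 and 1.08 CPM. PTPRC and CD3E of the blood list had no read, and DCN of the fibroblast list had 1 read in each library. The fibroblast sum came mostly from COL1A2, at 455 and 424 CPM. The part of such markers in the levels below was not tested.

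All 10 genes reached the detection threshold of 1 CPM in replicate 1 and in replicate 2. Over the whole gene table the share was 21.7%, and over protein-coding genes of GENCODE 29 it was 61.7%. Most protein-coding genes thus passed the same threshold.

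TERT, the catalytic subunit, was the lowest of the 10 genes per length, as given below. It had 170 reads in replicate 1, a level of 7.04 CPM with a 95% Clopper-Pearson interval of 6.02 to 8.18. Replicate 2 had 137 reads and 6.17 CPM (5.18 to 7.30). The intervals overlapped, and the mean was 6.61 ± 0.616 CPM (SD, n = 2), number 10277 of the 62700 genes. Without molecular identifiers, intervals here and below describe counting error alone. Its RNA partner TERC, on chromosome 3, was at 0 reads in both libraries. Taking 3 reads as the limit that a count of 0 allows, that is at most 0.124 CPM in replicate 1 and 0.135 CPM in replicate 2. On the same strand, 81.0% of the exonic length of TERC lies in exons of RF00024. How reads shared by both were counted is not given in the sources used here, so this limit is uncertain. TERC has no poly(A) tail in its mature form, and libraries of polyadenylated RNA do not measure it.

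Transcripts of the H/ACA proteins that hold the telomerase RNA were the most abundant of the 10 genes per length. NHP2, on chromosome 5 from 178149460 to 178153967, binds the RNA beside NOP10 and had 142 CPM in replicate 1 and 148 CPM in replicate 2. DKC1, the pseudouridine synthase of the complex, on chromosome X from 154762742 to 154777689, had 145 and 135 CPM. NOP10, the smallest of the core proteins with 64 amino acids, on chromosome 15 from 34341713 to 34343177, had 75.5 and 83.1 CPM. NHP2 and NOP10 had the higher value in replicate 2, and DKC1 in replicate 1. Of the exonic length of NHP2, 27.4% lies opposite exons of RMND5B, and use of strand in the counting is not given in the sources used here. GAR1, which joins the complex late and is needed for its function, on chromosome 4 from 109815510 to 109824740, had 33.2 and 28.0 CPM. Summed over the 4 genes the level was 396 CPM in replicate 1 and 395 CPM in replicate 2.

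WRAP53, on chromosome 17 from 7686071 to 7703502, had 317 reads in replicate 1, that is 13.1 CPM (11.7 to 14.7), and 288 reads in replicate 2, that is 13.0 CPM (11.5 to 14.6). The intervals cover each other almost wholly.

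The 4 shelterin genes each had similar values in the 2 libraries. TERF1, on chromosome 8 from 73008864 to 73048122, had 74.7 and 74.4 CPM. TERF2, which guards chromosome ends against fusion, on chromosome 16 from 69355561 to 69408571, had 30.7 and 32.8 CPM. POT1, on chromosome 7 from 124822386 to 124929983, had 26.8 and 27.1 CPM. ACD had 27.5 and 29.6 CPM. The interval of each of these genes overlapped between its libraries. Of the other shelterin subunits, TINF2, which links the DNA-binding proteins to ACD, had 22.7 and 22.4 CPM, and TERF2IP, the RAP1 protein that binds TERF2, had 28.0 and 27.3 CPM. TERF1 has 7 named processed copies (TERF1P1 to TERF1P7) and NHP2 has 2, with which reads can be shared. Together these 9 loci received 2 reads in replicate 1 and 4 in replicate 2.

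**Figure D1:**
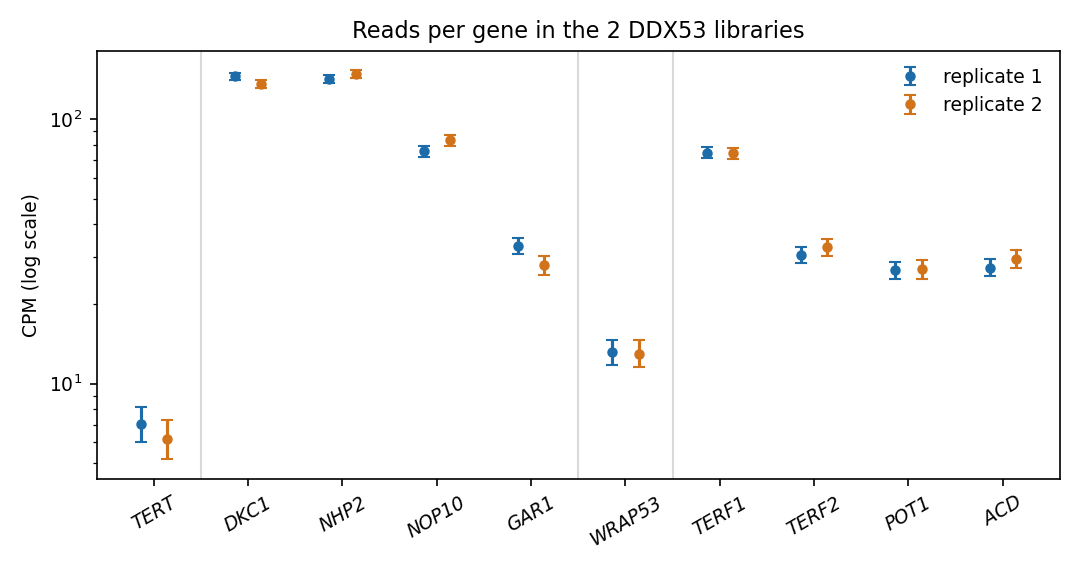
Level of each gene in CPM (log axis) in replicate 1 (blue) and replicate 2 (orange). Points are libraries and bars are 95% Clopper-Pearson intervals. The intervals of the 2 libraries overlap for 8 of the 10 genes, all but NOP10 and GAR1. Levels of different genes are not compared on this scale.

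CPM grows with the length of a transcript, so levels of different genes were compared per length. The measure was TPM, which scales reads per length to a common total, summed over the transcripts of a gene. NHP2 was highest, with 349 TPM in replicate 1 and 360 TPM in replicate 2. NOP10 followed with 306 and 341 TPM, then DKC1 with 71.8 and 66.6 TPM and GAR1 with 46.9 and 40.3 TPM. Thus transcripts of the 4 H/ACA proteins, which enter the complex together, were not equally abundant. The highest was 7.44 times the lowest in replicate 1 and 8.94 times in replicate 2. TERT had 3.60 and 2.98 TPM, and NHP2 exceeded it 96.9-fold in replicate 1 and 121-fold in replicate 2. WRAP53 had 9.03 and 8.86 TPM.

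The shelterin genes were closer to each other. ACD had 22.8 and 21.8 TPM, TERF1 had 23.6 and 20.7 TPM, and TERF2 had 17.9 and 20.6 TPM. TERF2IP was at 18.7 and 18.3 TPM and TINF2 at 13.2 and 10.6 TPM. POT1 stood below them, at 4.80 and 4.85 TPM. Without POT1 the highest of the 6 shelterin genes was 1.79 times the lowest in replicate 1 and 2.05 times in replicate 2. With POT1 the spread was 4.91-fold and 4.49-fold.

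In the order of TPM, the ranges of the 2 libraries did not overlap between most neighbours. The exceptions were ACD with TERF1 and TERF2 with TERF2IP, whose order is within their spread. With reads per kilobase of merged exons in place of TPM, 43 of the 45 pairs among the 10 genes kept their order. The pairs that changed were NOP10 with NHP2 and WRAP53 with POT1. By that measure NOP10 was highest (3289 and 3330 reads per kb) ahead of NHP2 (2273 and 2176 reads per kb). POT1, at 110 and 102 reads per kb, was then close to TERF2, at 132 and 130 reads per kb, and the 6 shelterin genes spread over 1.87-fold in replicate 1 and 2.0-fold in replicate 2. TERT remained last, at 36.9 and 29.8 reads per kb.

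The core proteins of the box C/D class, the other large class of small nucleolar RNA, were measured beside the H/ACA core. FBL, their methyltransferase, had 459 and 476 TPM, and NOP56 had 427 and 450 TPM. NOP58 had 144 and 128 TPM, and SNU13, a relative of NHP2, had 123 and 131 TPM. The range of the H/ACA genes in TPM thus began lower, with DKC1 and GAR1 below all 4 box C/D genes in both libraries, whereas NHP2 and NOP10 lay among them in TPM. By reads per kb this order was not kept: DKC1 (833 and 715) was above SNU13 (598 and 555), and NOP10 was above FBL (3066 and 2818), the highest of the 4.

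**Figure D2:**
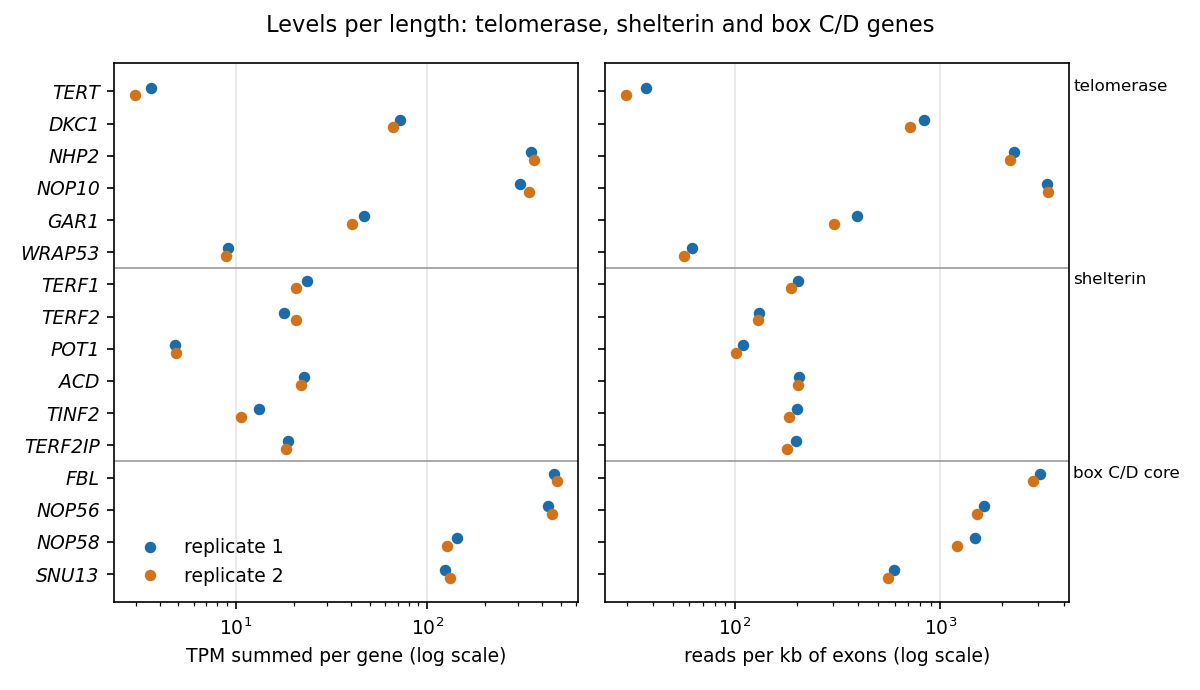
Levels per length on log axes, as TPM summed per gene (left) and as reads per kilobase of merged exons (right), for the telomerase genes, the 6 shelterin genes and the box C/D core. Each point is 1 library. NHP2 and NOP10 lie among the box C/D genes in TPM, TERT lies lowest, and POT1 stands apart from the other shelterin genes in TPM, at 4.80 and 4.85, more than in reads per kb.

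That difference of POT1 between the measures was looked at gene by gene. Reads in the gene table were divided by the reads predicted from TPM times transcript length. POT1 had 647 reads in replicate 1 against 211 predicted, a ratio of 3.07, and 601 against 155 in replicate 2, a ratio of 3.87. TERF1 had 2.79 and 3.16 times its prediction. Among genes with at least 1 TPM, 4.77% had more than 2 times the prediction in both libraries, and of the 10 genes POT1 and TERF1 did. NOP10 had fewer reads than predicted, with ratios of 0.665 and 0.654, and NHP2 had 0.788 and 0.776. The other 6 genes lay between 0.996 and 1.42. Transcripts newer than GENCODE 29 are left out of the sums of TPM. Their part in these ratios was not tested, and the place of POT1 and TERF1 in the order of TPM is uncertain. Of the transcripts of POT1 in GENCODE 29, 17 of 19 were in the table, 13 of them in the same version. In each of the 10 genes, the leading transcript of replicate 1 was in a version other than that of GENCODE 29. Lengths were those of GENCODE 29, and the part of such version changes in the ratios was not tested.

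**Figure D3:**
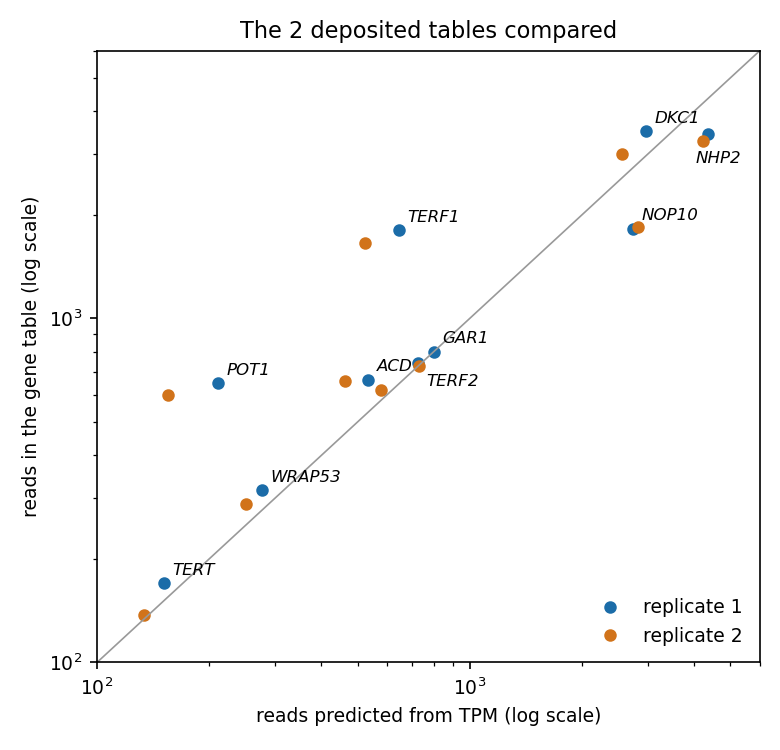
Reads of each gene in the gene table against reads predicted from TPM and transcript length, both on log axes, with the line of equality. Colours are the 2 libraries. POT1 and TERF1 lie above the line in both libraries, by 2.79 to 3.87 times.

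The libraries were then compared with each other. An exact binomial test per gene (edgeR binomTest, Benjamini-Hochberg adjustment over 15299 genes) called 13.1% of all genes at an adjusted p under 0.05. It compares these 2 libraries and not conditions, and has no replicate of either side. By direction, 6.78% were higher and 6.35% were lower in replicate 2. Of the 10 genes it called 2, 1 higher (NOP10) and 1 lower (GAR1), shares near that background. GAR1 was lower in replicate 2, with a ratio of 0.848 (95% exact interval, 0.762 to 0.942; edgeR exact test, adjusted p = 0.021). NOP10 was higher in replicate 2, with a ratio of 1.11 (1.04 to 1.18; edgeR exact test, adjusted p = 0.021). With shares near the background, the opposite directions of these 2 genes of the same complex are not read as a result about it.

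DKC1 had a ratio of 0.939 (0.894 to 0.986) and did not pass the edgeR exact test, with an adjusted p of 0.077. With library totals in place of TMM scaling it did, at 0.049. TERT had a ratio of 0.881, but its interval of 0.698 to 1.11 spans both directions, so a difference of that size was not detectable at its depth. For the 6 shelterin genes the ratios ran from 0.980 in TERF2IP (0.877 to 1.095) to 1.08 in ACD (0.971 to 1.21), with 1.00 in TERF1 (0.936 to 1.07). Of the 6 shelterin genes tested, 0 were called by edgeR's test and 0 had an unadjusted p under 0.05, beside 24.1% of all genes tested. The median log2 difference of the 10 genes, on the log2(CPM + 1) scale, was 0.0039, beside -0.0077 over the 13898 genes whose mean reached 1 CPM.

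**Figure D4:**
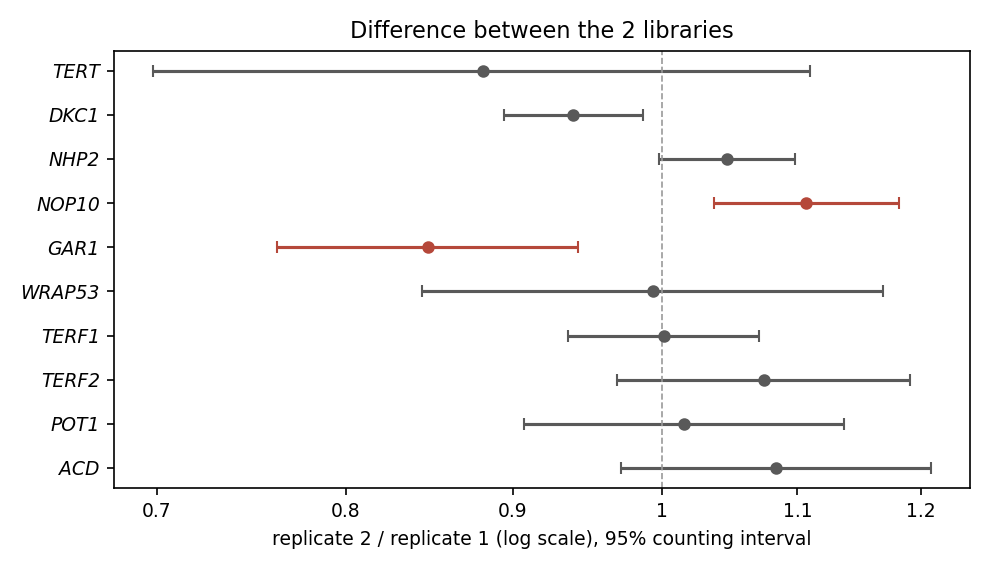
Ratio of replicate 2 to replicate 1 for each gene (log axis) with its 95% exact counting interval. Red marks the genes called by the exact binomial test, NOP10 at 1.11 and GAR1 at 0.848, and the dashed line marks equal levels.

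The transcript table gives the forms in which these genes were quantified. Its depth per transcript is not known, so shares have no interval. The leading transcript was the same in both libraries for 9 of the 10 genes. It differed in GAR1, and over all genes with at least 1 TPM and more than 1 transcript it differed in 11.7%.

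In TERT, full-length TERT-201 had 1.99 TPM in replicate 1 and 1.92 TPM in replicate 2, a share of 55.2% and 64.4% of the gene. The other large share belonged to transcripts with no coding sequence, with 42.9% and 35.6%. These were mainly TERT-205, a fragment of 406 bases with a retained intron, at 1.28 and 0.653 TPM. TERT-201 has 4018 bases, and TPM scales reads per length. The fragment thus stands for a far smaller share of the reads of TERT than of its TPM. TERT-203, which has the junctions of both deletions printed above, had 0.0668 TPM in replicate 1 and is listed at 0 in replicate 2. TERT-202 is listed at 0 in both libraries. Among transcripts annotated as protein-coding, TERT-201 therefore held 100% in each library. At 170 and 137 reads over the whole gene, few reads can lie on any single junction.

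In ACD, ACD-215 with the 9 capital bases held 96.4% and 93.4% of the gene. ACD-201, which lacks them, is listed at 0 in both libraries. ACD-203, which lacks them too and also lacks 39 further coding bases, held 0.623% and 0.715%. The form with these bases therefore accounted for most of the TPM of ACD.

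TERF1 is known in 2 forms, TRF1 and the shorter PIN2, which differ by exon 7. TERF1-202 has this exon of 60 bases (chr8:73030336-73030395) and codes for 439 amino acids. It held 97.8% of the TPM in replicate 1 and 99.0% in replicate 2. TERF1-201, which skips the exon and codes for 419 amino acids, is listed at 0 in both libraries. The excess of reads over TPM in TERF1 applies to these shares too.

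Of the 10 genes, GAR1 differed most between the libraries in the share of its leading transcript. GAR1-201 had 23.5 TPM in replicate 1 and is listed at 0 in replicate 2, whereas GAR1-202 had 7.59 and 28.4 TPM. Both code for the same 217 amino acids with identical coding sequences of 651 bases. Within the span both share, they differ by the noncoding first exon of GAR1-201, of 252 bases (chr4:109815553-109815804). GAR1-202 begins upstream of that exon, at 109815510, and both forms have 7 exons. The sum of both was 31.1 TPM in replicate 1 and 28.4 TPM in replicate 2. Transcripts with a retained intron held 33.7% and 29.4% of GAR1. A larger difference in the leading share than the 50.1 percentage points of GAR1 was seen in 1.39% of 11758 genes, and the median difference was 4.35 points.

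The remaining genes kept their leading form. DKC1-201 (514 amino acids) held 97.6% and 97.7%. NOP10-201 held 100% in both libraries. NHP2-201 (153 amino acids) held 75.3% and 79.4%, and most of the rest was NHP2-205, an incomplete model with 62 additional bases in exon 3. NHP2-202, which skips the 106 bases of exon 3, held 2.61% and 2.10%. In WRAP53, WRAP53-202 led with 89.2% and 86.8%, and WRAP53-210, which lacks the 99 coding bases of exon 3, held 8.36% and 12.1%. The complete coding forms that begin further upstream, WRAP53-201, WRAP53-203 and WRAP53-204, had at most 0.0477 TPM.

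TERF2 and POT1 were divided among more models. TERF2-201 (542 amino acids) held 55.5% and 52.8%, and incomplete coding models held 37.9% and 43.9%. POT1-201 (634 amino acids) held 58.1% and 43.9%, and POT1-205, an incomplete model of the 3′ end, held 32.1% and 26.4%. These shares leave out transcripts without a match in GENCODE 29. In TINF2 the shorter form of 354 amino acids, TINF2-202, led with 71.4% and 76.7%, and TINF2-201 of 451 amino acids held 24.7% and 20.5%.

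**Figure D5:**
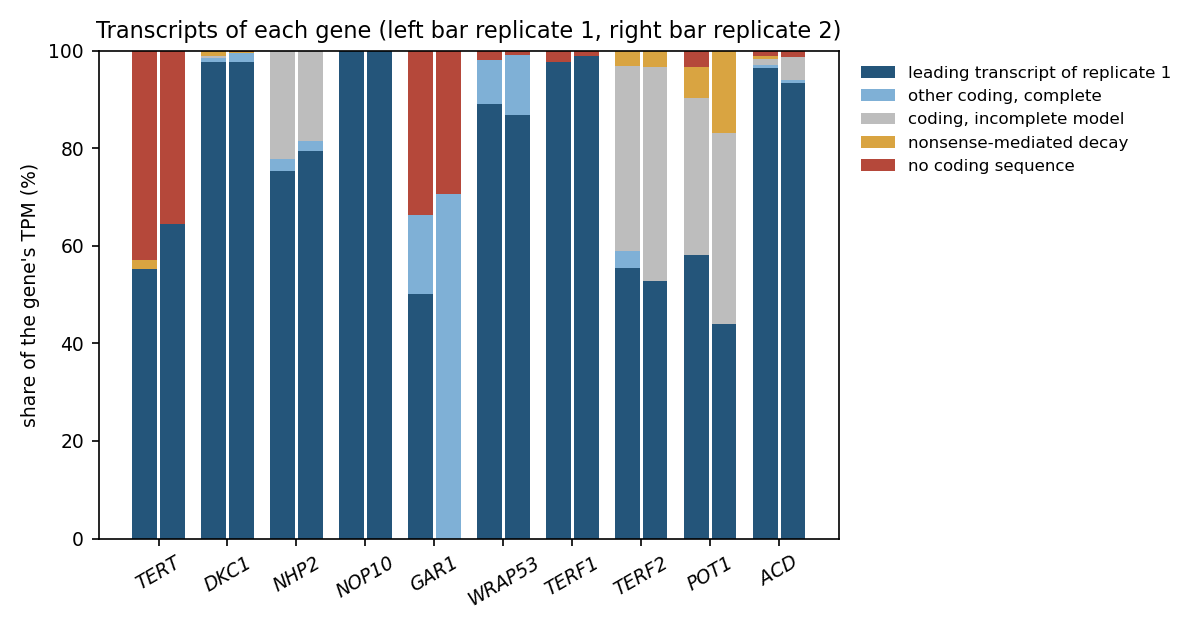
Share of each gene's TPM by kind of transcript, with replicate 1 in the left bar and replicate 2 in the right bar. Dark blue is the leading transcript of replicate 1, which in GAR1 held 50.1% in replicate 1 and is listed at 0 in replicate 2, where another coding transcript held 70.6%.

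The start sites of the genes were inspected for known motifs, since MYC and MAX are known to act on TERT and on ribosome-related genes through the E-box CACGTG, which reads the same on both strands. RefSeq windows on GRCh38.p14, from 250 bases before to 50 after a start, were held for 8 of the 10 genes. An E-box was present in 3 of the 8, GAR1, NOP10 and TERT, and in 8.77% of 27305 genes. The ETS core CCGGAA, searched on both strands, was present in GAR1, NOP10 and POT1, and in 20.1% of genes. The CCAAT box, searched on both strands, was present in 4 of the 8, GAR1, NHP2, NOP10 and WRAP53, and in 39.7% of genes. The windows of the 8 genes were richer in CG, with a median of 25 against 14 over all windows. Both CACGTG and CCGGAA contain a CG, and the part of this in the shares was not tested. These matches are descriptions of sequence. The E-boxes before the starts of TERT (chr5:1295214-1295243, minus strand) and NOP10 (chr15:34343289-34343318 and chr15:34343130-34343159, minus strand) are shown in capitals.
TERT, 163 bases upstream: gaccgcgcttccCACGTGgcggagggactg
NOP10, 170 bases upstream: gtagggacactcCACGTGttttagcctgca
NOP10, 11 bases upstream: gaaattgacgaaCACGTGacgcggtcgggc
MYC had 24.2 CPM in replicate 1 and 21.9 CPM in replicate 2, and MAX had 31.1 CPM in both. GABPA, an ETS factor, had 48.1 and 50.7 CPM, and the TERT window held no CCGGAA on either strand. All 5 genes of this list, which also holds SP1 and GABPB1, were detected. Between the libraries edgeR's exact test called 0 of 5, beside 13.1% of all genes tested. At an unadjusted p under 0.05 there was 1 of 5, beside 24.1% of all genes tested. Nothing about this list is read from these counts.

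Other genes of the pathway came from fixed lists. All 16 genes of telomerase assembly, RNA processing and regulation were detected. Among them, NAF1, which precedes GAR1 in the complex, had 20.7 and 21.1 CPM, and SHQ1, the chaperone of dyskerin, had 19.0 and 18.1 CPM. The ATPases RUVBL1 and RUVBL2 had 213 and 216 CPM and 138 and 131 CPM. PARN, which trims the end of TERC, had 107 and 101 CPM. By edgeR's exact test 3 of the 16 were higher in replicate 2 (HSP90AA1, NVL and PTGES3) and 0 were lower, beside 6.78% and 6.35% of all genes. At an unadjusted p under 0.05 there were 4 of 16, near the 24.1% of all genes.

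The CST complex ends telomerase action and brings in DNA polymerase alpha. CTC1 had 13.5 and 12.1 CPM and STN1 had 2.57 and 3.42 CPM. Per length they were closer, at 38.1 and 31.3 reads per kb for CTC1 and 38.3 and 47.0 for STN1. In TPM, CTC1 had 1.35 and 2.08 and STN1 had 0.859 and 1.06. TEN1 had 0 reads in replicate 1 and 1 read in replicate 2, but 27.6 and 25.8 TPM. On the same strand, 75.4% of its exonic length lies in exons of the read-through gene TEN1-CDK3. The helicase RTEL1, which unwinds telomere loops, showed the same pattern, with 9 and 5 reads, 13.2 and 12.2 TPM, and 70.2% of its exons within RTEL1-TNFRSF6B. RAD50 had 56 and 39 reads, 16.9 and 14.7 TPM, and 79.7% of such overlap. Counts of these 3 genes, like that of TERC, are uncertain. TERC, unlike them, is listed at 0 TPM in both libraries. Of the 10 main genes, DKC1 (5.85%, with small RNA genes) and TERF2 (1.74%) had exonic overlap on the same strand, and the other 8 had 0.

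Of the 7 genes of CST and polymerase alpha-primase, 6 were detected, and edgeR's exact test called 0 of 6 tested, with 0 at an unadjusted p under 0.05. Of 16 accessory telomere genes, 15 were detected. The test called RPA1 higher and RIF1 lower in replicate 2, 2 of 15 tested, beside 13.1% of all genes. At an unadjusted p under 0.05 there were 6 of 15, beside 24.1% of all genes tested. The lower value was in replicate 2 for 13 of the 16 genes, RTEL1 and RAD50 with their uncertain counts among them. The share of all genes with the lower value in replicate 2 was not taken, so no shift of this list is read from that count. ATRX and DAXX, chromatin factors often lost in tumours that maintain telomeres without telomerase, were both detected. ATRX had 66.7 and 56.1 CPM, and DAXX had 61.8 and 54.6 CPM. Both were lower in replicate 2 by the test (edgeR exact test, adjusted p = 0.00022 and 0.023), while SMARCAL1 and FANCM of the same list were not called. These are 2 of 4 genes called lower, beside 6.35% of all genes.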

How the data were processed

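The members and gene lists were chosen with earlier results of these data known. Libraries were stranded and made from polyadenylated RNA, per the labels. Trim Galore 0.6.10, STAR 2.7.11a, Salmon 1.10.2, DESeq2 and GRCh38 are named in the submitters' processing notes. How reads were counted per gene and the annotation are not given in the sources used here. The authors deposited TPM per transcript (251955 transcripts) and a gene table of a signal, read counts divided by 1 factor per library. Whole reads were recovered by dividing each library by its smallest value (1.02 for replicate 1, 1.12 for replicate 2). All values (100%) came out whole within 0.001. The count test on these reads called 2008 of 15299 genes. Header names were taken to start at the first value column.

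Transcripts were matched without version to GENCODE 29, which held 201667 of them and 94.8% of TPM in each library. Libraries were compared with edgeR 4.0.16 (binomTest, TMM, filterByExpr), tested on simulated data. A pseudocount of 1 CPM and a detection threshold of 1 CPM were used. Genes named were DDX53, the 10 genes, listed pathway and marker genes, and named copies of members. With 2 libraries no genes of like pattern were sought. Alternatives are given in the closing section.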

Additional observations from a re-analysis of the deposited data

How the results depend on the processing

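All 10 genes stayed detected at 0.1 CPM, at 5 CPM, at 1 TPM and in each library alone. GAR1 and NOP10 were called in each setting tried. Among the 10 genes they were the only calls with DESeq2 1.42.0 size factors and with all 26504 genes that had a read. DKC1 joined them with library totals. Of all genes tested, 13.1% were called with DESeq2 size factors, 6.47% with every gene that had a read and 13.0% with library totals. The median difference of the 10 genes ranged from -0.043 (TPM summed per gene) to 0.018 (deposited factors), within the SD of 0.12 among the genes. GAR1 was the 1 gene whose leading transcript differed, whether 10 TPM or no minimum was asked. Among protein-coding transcripts only, the leading share was 100% in TERT and TERF1 and 87.8% in GAR1, a mean over GAR1-201 in replicate 1 and GAR1-202 in replicate 2. The CPM of each gene with either library left out is its value in the other library. No paired analysis was possible because both libraries belong to 1 group. Leaving out a replicate leaves no comparison between libraries. Depth limits TERT most, with 170 and 137 reads. No interval is available for transcript shares.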
